A study of Mus musculus with 69 samples.

Results

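Cultures labelled as cardiac endothelial cells (EC) and exposed to angiotensin II and a catecholamine were compared with cells of the same animal that received the same hormones together with high glucose and free fatty acids. The comparison asks what metabolic stress adds to hormonal stress. It takes the 18 libraries of the EC count table with the treatments ALL or AII+NA from the 9 sets of cells that hold both, out of 69 libraries in the series. Each set gave 1 library of either treatment, so that the data are 9 pairs from 8 animals, with sets 17 and 18 from the same animal. A further EC set, set 15, has an ALL library without an AII+NA library analysed here and does not enter.

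By their labels all cells were primary EC from hearts of male C57BL/6 mice with the cell genotype WT, and the labels do not give the age. The markers below go against that name in part, so that EC stands for the label throughout. They had been depleted of CD45+ cells and selected with CD31 beads. A limit of 7 passages and incubation without serum are stated for the smooth muscle cultures, and whether they held for the EC is not given in the sources used here. AII+NA stood for 24 h with 30 nM angiotensin II and 300 nM of a catecholamine, which the labels call epinephrine and the study's methods norepinephrine. ALL stood for the same hormones for 24 h with 20 mM glucose and free fatty acids, given as 100 µM in the labels and as 100 µM each of oleate and palmitate in the methods. Albumin was in every medium, and no ALL library separates the contribution of glucose from that of the fatty acids. The animal of set 16 also gave set 6 of the smooth muscle cells with SM22-Cre and floxed Egfr (KO VSMC), and that of set 15 gave set 7, although the EC of both are labelled WT. EC sets 9 and 10 share their animals with sets 1 and 2 of the smooth muscle cells labelled WT (WT VSMC).

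Fatty acids that enter a cell are burned in mitochondria, stored in lipid droplets or act as ligands of the peroxisome proliferator-activated receptors (PPARs). PPARs bind DNA with a retinoid X receptor partner and raise genes of fatty acid transport, oxidation and storage. Liver X receptors (LXRs) answer to oxidized sterols and raise genes that export cholesterol. In the heart, endothelial cells form the layer that fatty acids cross on their way to the muscle.

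Total counts lay between 18670964 and 39755642 per library. Levels are given in FPM, counts per 1000000 after edgeR's TMM normalization, and each difference as the log2 fold change of ALL over AII+NA ± SE from edgeR's quasi-likelihood model with the set as a block, with Benjamini-Hochberg adjustment of p over every gene in the test. The endothelial identity of the libraries was uneven. The summed level of 22 endothelial markers ran from 453 to 7520 FPM, and in sets 9, 11 and 13 it did not exceed 728 FPM. In those 3 sets Pecam1, which encodes the CD31 protein used for selection, lay between 15.7 and 41.7 FPM, against 256 to 1745 FPM in the other sets, and Cdh5, the endothelial cadherin, between 5.23 and 43.9 FPM. On a scale shared with the smooth muscle libraries the endothelial sum was 431 to 7183 FPM in EC and 386 to 487 FPM in WT VSMC. The sum of 12 smooth muscle and pericyte markers exceeded the endothelial sum in sets 9, 11 and 13 under both treatments, with 1443 to 4704 FPM, and in no other set. Fibroblast markers were abundant, with a sum of 1920 to 38410 FPM over 12 genes and Col1a1 between 13 and 6883 FPM. Their sum exceeded the endothelial sum in 6 of 9 sets under both treatments, sets 9, 10, 11, 13, 16 and 17, and the ratio of fibroblast to endothelial sum ran from 0.283 to 53.9. On the shared scale the fibroblast sum was 1895 to 37040 FPM in EC and 13920 to 32050 FPM in WT VSMC, so that these markers do not separate fibroblasts from smooth muscle cells. The leukocyte gene Ptprc was at 0 in 12 of 18 libraries and at most 1.04 FPM, and the cardiomyocyte gene Myh6 was at 0 in all of them. Other members of these lists were read, so that the sum of 10 leukocyte markers ran from 16.7 to 136 FPM, with Lyz2 at up to 97.96 FPM, and that of 9 cardiomyocyte markers from 2.19 to 318 FPM, with Tnnt2 at up to 312 FPM. Results are therefore given for the 9 sets and, where calls of the genes and lists named here differ, also without sets 9, 11 and 13, an alternative chosen after seeing the data that leaves 6 sets from 5 animals. In these bulk samples a smaller number of cells of a type and less RNA per cell cannot be told apart.

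**Figure D1:**
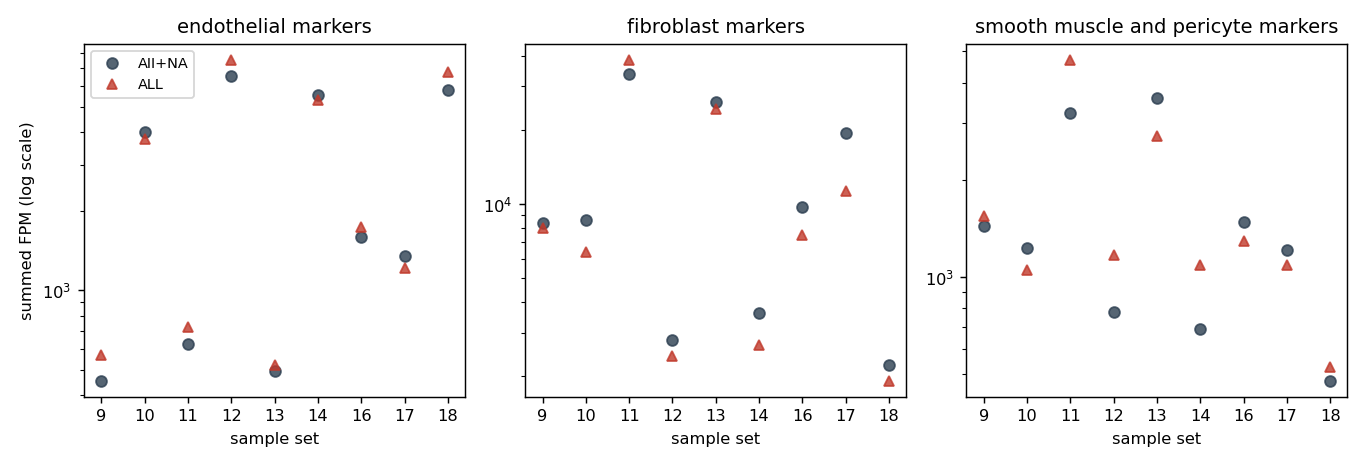
Summed FPM on a log scale of the endothelial, fibroblast, and smooth muscle and pericyte markers by sample set, with circles for AII+NA and triangles for ALL. The endothelial sum of sets 9, 11 and 13 lies between 453 and 728 FPM, and the fibroblast sum is lower under ALL in 8 of 9 sets.

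Between the treatments the endothelial sum was higher under ALL in 6 of 9 pairs, with a median log2 ratio of 0.12. The fibroblast sum was lower under ALL in 8 of 9 pairs with a median of -0.22, and the lymphatic sum was lower in 8 of 9 pairs with a median of -0.26. Of the 20 endothelial markers tested, Flt1 and Vwf fell, and of the 12 fibroblast markers Col3a1 fell, against 0.732% of all genes called lower by edgeR's FDR. Leaving out 1 set ended the call of Flt1 in 5 of 9 fits (adjusted p up to 0.092) and that of Col3a1 in 7 (0.14), and both passed without sets 9, 11 and 13. In that fit the fibroblast marker Col1a2 (log2FC -0.66 ± 0.13, adjusted p = 0.034) fell as well and the endothelial marker Mmrn2 (0.45 ± 0.09, adjusted p = 0.028) rose, so that 2 of 12 fibroblast markers fell and 1 of 20 endothelial markers rose and 2 fell, against 0.591% of all genes called higher and 0.848% lower. No tested marker of the lymphatic, smooth muscle and pericyte, leukocyte, cardiomyocyte or mesothelial lists passed edgeR's FDR in either fit. In DESeq2 with the 9 sets, the lymphatic marker Pdpn (log2FC -0.37, adjusted p = 0.02) and the pericyte marker Cspg4 (-0.71, 0.024) were lower. The mesothelial marker Upk3b was higher (0.545, 0.039). DESeq2 also called Col1a2 lower (-0.45, 0.016) and the endothelial markers Emcn (0.34, 0.024) and Mmrn2 (0.46, 0.0067) higher.

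Of 15431 genes tested, 76 were differentially expressed (DEG), that is they passed an FDR of 0.05 in DESeq2 as well as edgeR, changed by 0.64 or more on the log2 scale and reached a mean of 3 FPM under either treatment. This is 0.493% of the genes, with 35 higher (0.227%) and 41 lower (0.266%) under ALL. Some DEG met the minimum of 3 FPM only through the treatment in which they were high. Ucp2 and Camk2a did so through ALL, and Abcg1 and Lgr6 through AII+NA. By edgeR's FDR alone 210 genes passed (1.36%), 97 higher (0.629%) and 113 lower (0.732%). The median log2FC of all genes was -0.01. Among the DEG, 53 changed in the same direction in all 9 pairs, and none did so in fewer than 7, whereas 2.34% of all genes tested kept 1 direction in 9 pairs. They were 29 of the 35 higher DEG, against 0.998% of all genes, and 24 of the 41 lower DEG, against 1.34%. The DEG closest to the limit had a |log2FC| of 0.64 and the largest value left outside was 0.63, with 123 genes past both FDR limits at smaller changes. Without sets 9, 11 and 13 there were 107 DEG (0.672% of 15912 genes), 36 higher and 71 lower, and 56 of the 76 remained among them. Leaving out set 10 alone gave 46 DEG and 79 genes at edgeR's FDR. At that FDR 94 genes passed without set 16 and 98 without set 12, so that the shares of all genes called also depend on single sets.

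The gene with the largest rise was Angptl4, which encodes a secreted inhibitor of lipoprotein lipase (ENSMUSG00000002289, GRCm39 chr17:33992724-34000804, minus strand). Under AII+NA its level was 103 FPM in set 9, 14.4 in set 10, 490 in set 11, 28.7 in set 12, 39.9 in set 13, 5.98 in set 14, 13.1 in set 16, 4.54 in set 17 and 9.17 in set 18. Under ALL it was 406, 264, 1037, 271, 457, 132, 141, 110 and 192 FPM in the same order. Every ALL library was above its partner, but the groups overlapped because set 11 was already high under AII+NA. The rise was 10.8-fold (log2FC 3.44 ± 0.33, adjusted p = 0.00016), and without sets 9, 11 and 13 the log2FC was 4.04 ± 0.19.

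Ech1, which encodes a dienoyl-CoA isomerase that prepares unsaturated fatty acids for oxidation (ENSMUSG00000053898, chr7:28524036-28531674), had the smallest adjusted p. Its level was 74.5 to 124 FPM under AII+NA, with a median of 87.8, and 165 to 277 FPM under ALL, with a median of 205. The ranges of the groups did not overlap, and Ech1 was the only gene tested of which this was true (0.00648% of the genes). The fold was 2.16 (log2FC 1.11 ± 0.06, adjusted p = 3.5e-07).

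**Figure D2:**
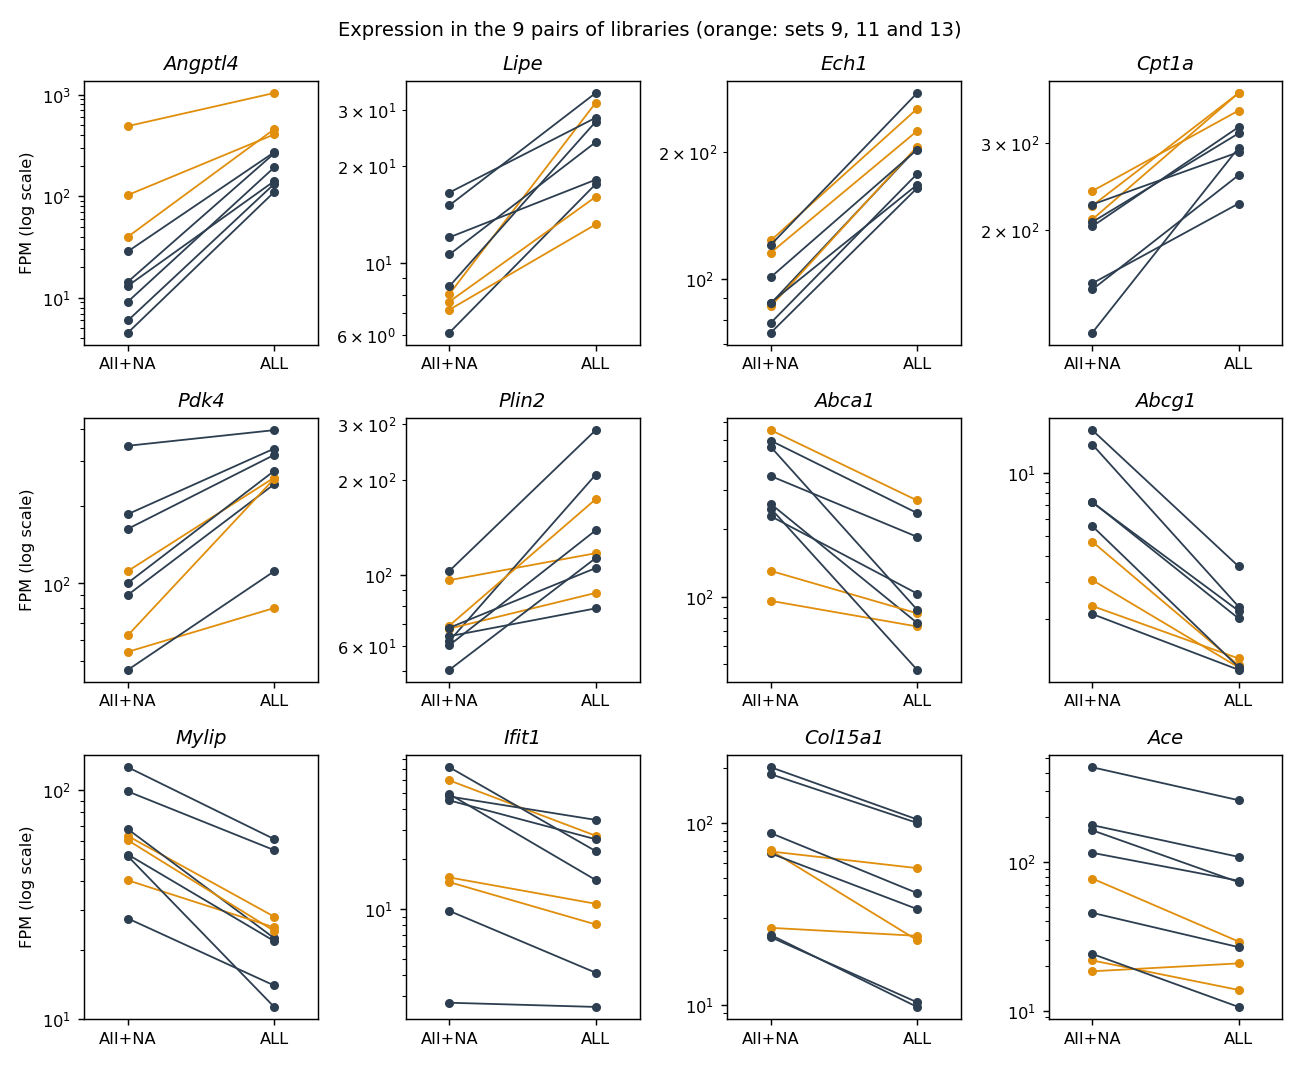
FPM on a log scale of 12 genes in the 9 pairs, where each line joins the AII+NA and the ALL library of a set and sets 9, 11 and 13 are in orange. All Ech1 values under ALL lie above 164 FPM and all values under AII+NA below 124 FPM, whereas Angptl4 spans 4.54 to 490 FPM under AII+NA and rises in each set.

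Textbook PPAR targets were the list with the most genes called higher. Of 28 tested, 13 rose (46.4%, against 0.629% of all genes) and none fell, and their median log2FC was 0.42. Among the members that rose were Angptl4, Ucp2, Fabp4, Pdk4, Ech1, Acot1, Plin2, Cpt1a, Acaa2, Acot2, Acadl and Slc25a20. In the 6 other sets 12 of the same 28 rose, with Fabp4 out, against 0.591% of all genes called higher in that fit. The list was chosen with earlier results of these data known, so its direction is no independent evidence. The receptors themselves, with their partners and coregulators, gave 13 tested genes of which none passed. Among them Ppard had a log2FC of 0.21 ± 0.12 (adjusted p = 0.47) and Pparg of 0.28 ± 0.14 (adjusted p = 0.41), and both were picked after their values were seen.

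Ucp2, a mitochondrial carrier of the uncoupling protein family (ENSMUSG00000033685, chr7:100142055-100151227), was low, with 0.171 to 3.76 FPM under AII+NA and 0.371 to 10.48 FPM under ALL. Its rise was 3.46-fold (log2FC 1.79 ± 0.27, adjusted p = 0.0039) and present in all 9 pairs, but 18% of its exon length overlaps another gene. The same share was 60.9% for Aldh6a1, 24% for Fabp4, 22.3% for Lipe, 17% for Ace, 31.1% for Isg15, 31.9% for Adm and 44.2% for Hspa5. It was 25.5% to 43.8% for the glycolytic genes Tpi1, Pfkl, Pkm, Gapdh and Aldoa, 20.1% for Fbn1, 21.3% for Timp3 and 15.5% for Dbi. Where strands were not separated in counting, reads of such neighbours cannot be told apart.

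Plin2, which coats lipid droplets, had 50.4 to 103 FPM under AII+NA (median 67.9) and 78.7 to 287 FPM under ALL (median 117) and rose in all 9 pairs (log2FC 0.95 ± 0.15, adjusted p = 0.0051). Promoters of the DEG were searched for the direct repeat of AGGTCA with a spacer of 1 base (DR1), which PPARs bind, on both strands and with up to 2 mismatches. Plin2 was the only 1 of 22 higher DEG with a RefSeq promoter window that held a match, 225 bases before the start, and Aldh6a1 the only 1 of 28 lower DEG, 107 bases before the start. Of all genes with such windows, 4.4% held a match. The LXR repeat, AGGTCA with a spacer of 4 bases (DR4), was found for 3.47% of all genes and for none of the 50 DEG with a window. A match describes letters and is no binding site. The matches are shown on the gene's strand, with the repeat in capitals and read on the opposite strand, at GRCm39 chr4:86588494-86588536 for Plin2 and chr12:84497878-84497920 for Aldh6a1.
Plin2: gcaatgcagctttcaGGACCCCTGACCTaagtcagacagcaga
Aldh6a1: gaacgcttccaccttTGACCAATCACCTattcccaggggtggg

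Genes of fatty acid handling changed at several steps. In uptake and binding, 3 of 14 genes (21.4%, against 0.629% of all genes) rose and none fell: Slc43a3, a solute carrier linked to fatty acid flux, from a median of 91.1 to 194 FPM (log2FC 1.07 ± 0.11, adjusted p = 0.00019), Dbi, the acyl-CoA binding protein (0.55 ± 0.09), and Fabp4, a fatty acid binding protein (1.42 ± 0.29, 7 of 9 pairs). Fabp4 lost its call without set 10, 12, 13 or 16, with an adjusted p of up to 0.094, and without sets 9, 11 and 13 together (adjusted p = 0.077). Cd36, the fatty acid translocase, was below the count filter in the 9 sets. Its level went from 1.23 to 71.8 FPM in set 12 and from 3.33 to 19.8 FPM in set 14, and was at most 2.09 FPM in every other library of the comparison. Without sets 9, 11 and 13 it passed the filter, through these ALL libraries in which it was high, so that its test there is not reported. Fabp5 had a log2FC of 0.11 ± 0.09 (adjusted p = 0.63).

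The carnitine shuttle, which carries long-chain fatty acids into mitochondria, had 2 of 7 genes higher (28.6%, against 0.629% of all genes). Cpt1a, its rate-limiting enzyme, had 124 to 240 FPM under AII+NA (median 208) and 226 to 378 FPM under ALL (median 314), and the log2FC was 0.70 ± 0.08 (adjusted p = 0.0007). Slc25a20, the carnitine-acylcarnitine carrier, rose by 0.48 ± 0.08 (adjusted p = 0.0055). In beta-oxidation 3 of 34 genes rose (8.82%, against 0.629%) and none fell, with a list median of 0.10. Beside Ech1 these were Acaa2, the thiolase of the last step (0.66 ± 0.07, adjusted p = 0.00043), and Acadl, a long-chain dehydrogenase (0.53 ± 0.07, adjusted p = 0.0024), each in all 9 pairs. The trifunctional protein gene Hadha did not pass (0.10 ± 0.06, adjusted p = 0.53), and most of the pathway gave no call. Without sets 9, 11 and 13 the isomerase gene Eci2 passed as well, and 4 of 34 rose, against 0.591% of all genes.

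Among 19 lipid droplet genes Plin2, Plin4 and Lipe rose (15.8%, against 0.629% of all genes) and Gpam fell (5.26%, against 0.732%). Lipe, the hormone-sensitive lipase, had 6.10 to 16.6 FPM under AII+NA (median 8.5) and 13.2 to 33.8 FPM under ALL (median 23.8), with a log2FC of 1.20 ± 0.14 (adjusted p = 0.00054). Plin4, another droplet coat protein, rose by 1.16 ± 0.19 (adjusted p = 0.0058), and 39.1% of its exon length overlaps another gene. Gpam, the first enzyme of triglyceride synthesis, fell by 0.53 ± 0.09 (adjusted p = 0.0099) in all 9 pairs. Of the acyl-CoA thioesterases, which release fatty acids from CoA, Acot1 (1.02 ± 0.17) and Acot2 (0.65 ± 0.11) rose out of 9 (22.2%, against 0.629% of all genes), and without sets 9, 11 and 13 Acot7 also rose (0.47 ± 0.09, adjusted p = 0.025). Acot1 and Acot2 are close paralogs, and counting of multiply aligned reads makes their separate values uncertain.

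In glucose handling 8 of 37 genes rose (21.6%, against 0.629% of all genes) and none fell, with small changes except for Pdk4. Pdk4, the kinase that inhibits pyruvate dehydrogenase, had 46 to 345 FPM under AII+NA (median 101) and 80.2 to 397 FPM under ALL (median 259), with a log2FC of 1.11 ± 0.14 (adjusted p = 0.0012). The other 7 are glycolytic enzymes and were higher in all 9 pairs: Pfkl (log2FC 0.45), Pkm (0.45), Gapdh (0.44), Eno1 (0.39), Aldoa (0.38), Pgam1 (0.33) and Tpi1 (0.32), with SE between 0.07 and 0.09 and adjusted p between 0.0097 and 0.048. Eno1 and Pkm lost the call without set 10 (adjusted p = 0.0503 for both), and Eno1 also without set 12 (0.061). Gapdh lost it in 4 of the 9 fits without 1 set (adjusted p up to 0.069), Pgam1 in 5 (0.083), Aldoa in 6 (0.14) and Tpi1 in 8 (0.14). Without sets 9, 11 and 13 Pfkl (adjusted p = 0.055) and Pkm (0.06) no longer passed and Pgk1 did (0.04). With all sets Pgk1, named after its values were seen, had a log2FC of 0.37 ± 0.09 (adjusted p = 0.055), Ldha of 0.25 ± 0.09 (0.26) and Txnip, a glucose-responsive gene, of -0.23 ± 0.09 (0.24). Glycolytic genes have many processed pseudogenes that can share reads with them. Of 15 glycogen genes, 1 rose and 1 fell, against 0.629% and 0.732% of all genes. Stbd1, which tethers glycogen to membranes, rose from a median of 17.4 to 55.4 FPM (log2FC 1.51 ± 0.19, adjusted p = 0.00093). Ppp1r3c, which targets a phosphatase to glycogen, fell by 0.90 ± 0.17 (adjusted p = 0.017) and was not called without set 10 or without sets 9, 11 and 13 (adjusted p = 0.15).

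Among LXR genes the calls were towards lower levels. Of 16 LXR receptors and targets, 4 fell (25%, against 0.732% of all genes) and none rose. Abca1, which loads cholesterol onto lipoproteins (ENSMUSG00000015243, chr4:53030787-53159900), had 95.8 to 552 FPM under AII+NA (median 259) and 47.2 to 268 FPM under ALL (median 87.5). It was lower in all 9 pairs, by 1.29 ± 0.19 on the log2 scale or 2.45-fold (adjusted p = 0.0031). Abcg1, a second cholesterol exporter (ENSMUSG00000024030, chr17:31276649-31336969), had 2.11 to 15.95 FPM under AII+NA (median 5.55) and 1.15 to 3.57 FPM under ALL (median 1.3), 3.38-fold less (adjusted p = 0.00079). Mylip, a ubiquitin ligase that removes the LDL receptor (ENSMUSG00000038175, chr13:45543215-45565501), had 27.5 to 126 FPM under AII+NA (median 60.4) and 11.3 to 61.2 FPM under ALL (median 24.2), 2.34-fold less (adjusted p = 0.00024). Scd2, a fatty acid desaturase, went from a median of 389 FPM to 248 FPM (log2FC -0.75 ± 0.16, adjusted p = 0.029). The calls of Abca1, Abcg1 and Mylip held without any single set and without sets 9, 11 and 13, where the log2FC were -1.60, -1.93 and -1.303. Scd2 lost its call without set 9, 12, 13, 16 or 18 (adjusted p up to 0.097) and without sets 9, 11 and 13 (0.075). Apoe (log2FC -0.13 ± 0.14) and Pltp (-0.10 ± 0.09), other LXR targets, did not pass, nor did the receptors Nr1h2 (0.17 ± 0.12) and Nr1h3 (0.15 ± 0.16), which were named after their values were seen.

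Of 26 genes of cholesterol synthesis and uptake none passed, and 23 had a positive log2FC, as had 47.4% of all genes, with a list median of 0.19. Srebf2, their transcription factor, had a log2FC of 0.33 ± 0.10 (adjusted p = 0.13 in edgeR and 0.043 in DESeq2). The list median was 0.09 without sets 9, 11 and 13, and 17 of 26 were positive, against 46.1% of all genes. In fatty acid synthesis 2 of 20 genes fell (10%, against 0.732% of all genes), Scd2 and Acaca, the acetyl-CoA carboxylase (-0.48 ± 0.11, adjusted p = 0.049). Acaca lost its call in every fit without 1 set except set 9, with an adjusted p of up to 0.14, and neither of the 2 passed without sets 9, 11 and 13.

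**Figure D3:**
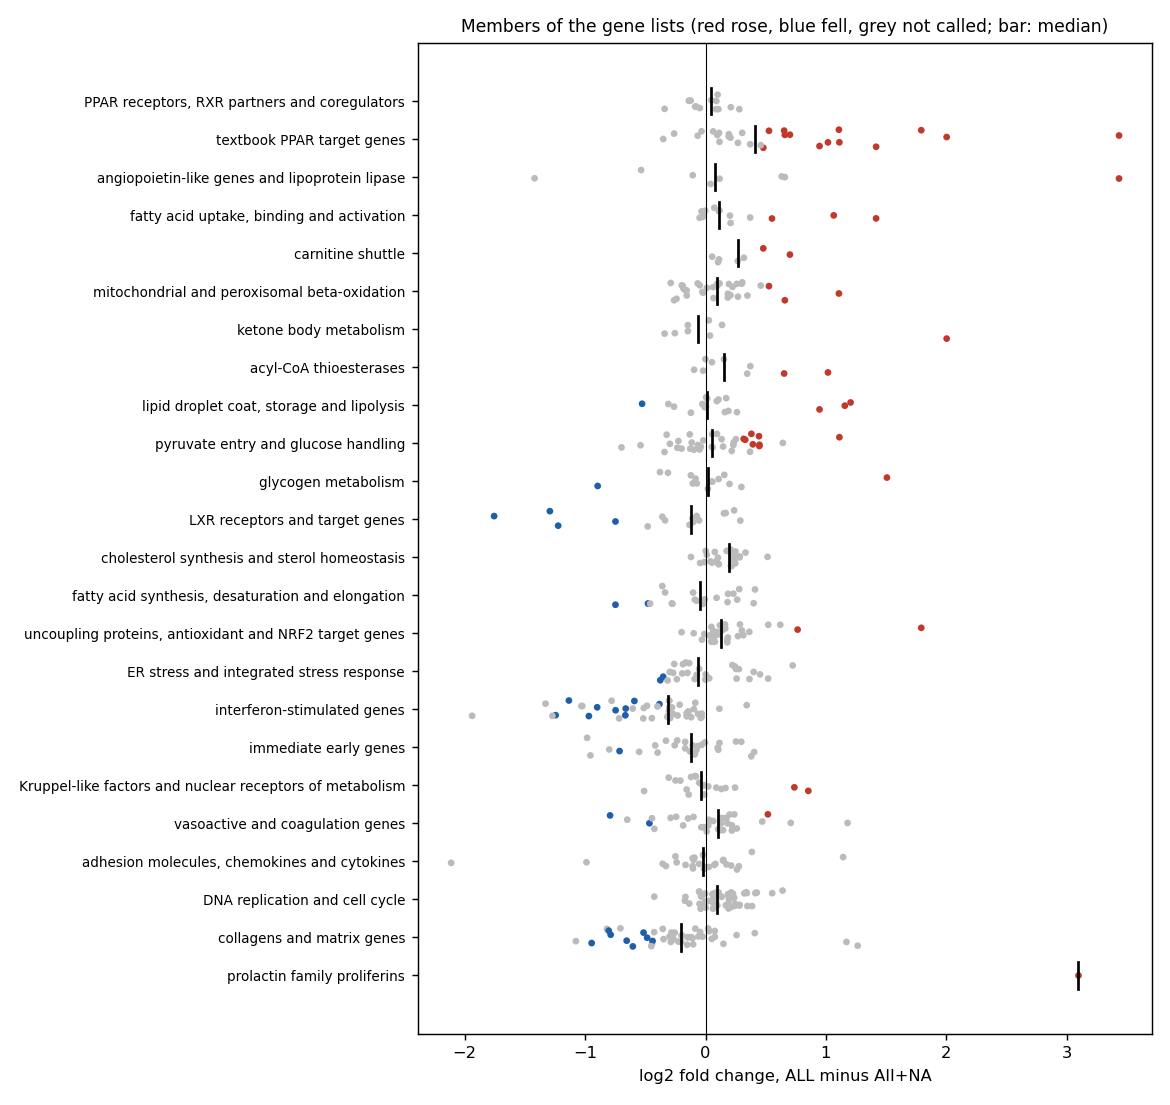
The log2 fold change of ALL over AII+NA for each tested member of the gene lists, 1 row for each list, with called members marked and the list median drawn. PPAR targets reach 3.44 to the right with 13 of 28 called, interferon-stimulated genes lie left of 0 in 45 of 47, and the lists of cholesterol synthesis and cell cycle hold no called member.

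Among interferon-stimulated genes the calls were towards lower levels. Of 47 tested, 9 fell (19.1%, against 0.732% of all genes) and none rose, 45 had a negative log2FC, as had 52.6% of all genes, and the median was -0.31 against -0.01 for all genes. The exceptions were Irf1 (0.12 ± 0.11) and Ifit2 (0.34 ± 0.10, adjusted p = 0.12). The members that fell were Ifi44, Isg15, Ifit1, Gbp3, Ifi204, Oasl2, Irf7, Xaf1 and Irf9. Ifit1, which binds viral RNA, was 59.8, 71.7, 15.5, 9.74, 14.5, 2.72, 45.3, 47.8 and 49.4 FPM under AII+NA in sets 9 to 14 and 16 to 18, and 27.7, 22.4, 10.8, 4.13, 8.08, 2.57, 26.4, 34.5 and 14.99 FPM under ALL. It was lower in every pair, with hardly a difference in set 14, and the log2FC was -0.97 ± 0.15 (adjusted p = 0.0051). Isg15, a ubiquitin-like modifier, had 4.80 to 22.6 FPM under AII+NA (median 8.59) and 1.03 to 9.35 FPM under ALL (median 4.88), and was lower in 8 of 9 pairs (log2FC -1.14 ± 0.24, adjusted p = 0.026). Gbp3, a guanylate-binding protein, went from a median of 12.4 to 5.64 FPM in all 9 pairs (-0.90 ± 0.18). Irf9, a subunit of the factor that drives these genes, fell by 0.38 ± 0.08 (adjusted p = 0.031). Lgals3bp, the most abundant of those without a call, had a log2FC of -0.12 ± 0.09.

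Ifi44 lost its call without set 10, 13, 14, 16 or 18 (adjusted p up to 0.09), Gbp3 without set 10, 13 or 16 (up to 0.084), Isg15 without set 10, 12, 13 or 16 (0.093) and Oasl2 without set 10 or 16 (up to 0.06). Irf9 lost its call in 5 of these fits (0.10), Xaf1 (0.097) and Ifi204 (0.13) in 6 and Irf7 in 7 (0.14). With sets 9, 11 and 13 left out together, Irf7 (adjusted p = 0.07), Ifi204 (0.08), Xaf1 (0.12) and Irf9 (0.14) no longer passed, whereas Ifi203 and Ifih1 did. In that fit 7 of 48 members fell, against 0.848% of all genes, the median was -0.43, and 44 were negative, as were 53.9% of all genes. The leukocyte marker sum was higher under ALL in 5 of 9 pairs.

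Among collagens and matrix genes all calls were towards lower levels. Of 47 tested, 8 fell (17%, against 0.732% of all genes) and none rose, and the median log2FC was -0.20. Col15a1, a collagen of basement membranes, had 23.5 to 203 FPM under AII+NA (median 69.8) and 9.72 to 105 FPM under ALL (median 33.6) and was lower in all 9 pairs (log2FC -0.95 ± 0.13, adjusted p = 0.0022). Col6a3 fell by 0.66 ± 0.11, Ptn, a heparin-binding growth factor, by 0.79 ± 0.13 and Cpxm1, a secreted protein of the carboxypeptidase family, by 0.80 ± 0.16. Smaller changes were those of Col5a3 (-0.60 ± 0.13), Timp3, an inhibitor of metalloproteinases (-0.52 ± 0.11), Fbn1, the fibrillin of microfibrils (-0.49 ± 0.10), and Col3a1 (-0.44 ± 0.10). Fn1 (-0.23 ± 0.10) and Bgn (-0.14 ± 0.07), the most abundant members, did not pass. Cpxm1 lost its call without set 10, 12, 13, 14 or 16 (adjusted p up to 0.073). Fbn1 lost it in 4 of the 9 fits without 1 set (0.077), Timp3 in 5 (0.086), Col5a3 in 6 (0.096) and Col3a1 in 7 (0.14), and these 4 passed without sets 9, 11 and 13. In the 6 other sets 13 of 47 fell, against 0.848% of all genes, and Mmp3 rose, against 0.591%. The fibroblast marker sum moved in the same direction in 8 of 9 pairs, but 6 of its 12 genes (Col1a1, Col1a2, Col3a1, Dcn, Lum and Postn) are members of the matrix list and made up 65.3% to 93.2% of it. The sum of the 6 markers outside the list was also lower under ALL in 8 of 9 pairs, with a median log2 ratio of -0.19, and none of these 6 passed the test. The part of fibroblast content in the matrix changes was not tested.

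Among 33 vasoactive and coagulation genes 1 rose and 2 fell, against 0.629% and 0.732% of all genes. Ace, which makes angiotensin II from its precursor, had 18.4 to 435 FPM under AII+NA (median 77.5) and 10.6 to 261 FPM under ALL (median 29.2) and was lower in 8 of 9 pairs (log2FC -0.79 ± 0.12, adjusted p = 0.0051). Vwf, the clotting factor of endothelial granules, fell by 0.47 ± 0.10 in 8 of 9 pairs (adjusted p = 0.033). Adm, the vasodilator adrenomedullin, rose by 0.52 ± 0.11 in 8 of 9 pairs (adjusted p = 0.031), and Ece1, the endothelin-converting enzyme, had a log2FC of -0.29 ± 0.09 (adjusted p = 0.16). The calls of Vwf and Adm were lost where set 10, 12, 13, 14 or 16 was left out, that of Vwf also without set 17 (adjusted p up to 0.12) and that of Adm also without set 18 (up to 0.096). Both passed without sets 9, 11 and 13. In that fit Ece1 (-0.43 ± 0.07, adjusted p = 0.019) and Ramp2 also fell and Plaur rose, so that 2 of 33 were higher and 4 lower, against 0.591% and 0.848% of all genes.

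No gene passed among 27 adhesion molecules, chemokines and cytokines or among 57 genes of DNA replication and the cell cycle, whose median log2FC were -0.02 and 0.10. Of 26 immediate early genes, 1 fell, against 0.732% of all genes, which was Egr1 (log2FC -0.71 ± 0.15, adjusted p = 0.024, 9 of 9 pairs). Its call was lost without set 10, 13 or 16 (adjusted p up to 0.074) or without sets 9, 11 and 13 (0.064). Of 30 uncoupling and antioxidant genes, Ucp2 and Hmox1 rose (6.67%, against 0.629% of all genes). Hmox1, the haem oxygenase, had 24.8 to 122 FPM under AII+NA (median 64.1) and 46.3 to 182 FPM under ALL (median 103), with a log2FC of 0.77 ± 0.11 (adjusted p = 0.0023). Without sets 9, 11 and 13, Gpx4, Srxn1, Tfrc and Txnrd1 passed as well, so that 6 of 30 rose, against 0.591% of all genes. Of 20 Kruppel-like factors and metabolic nuclear receptors, Klf11 (0.74 ± 0.12) and the retinoid reductase gene Dhrs3 (0.85 ± 0.13) rose in all 9 pairs (10%, against 0.629%). In the list of 28 genes of endoplasmic reticulum stress Hspa5, the main chaperone, and Vldlr, a lipoprotein receptor, fell by 0.35 ± 0.08 and 0.38 ± 0.09 (7.14%, against 0.732%), and Hsp90b1 had a log2FC of -0.15 ± 0.09. Both calls were lost in 8 of 9 fits without 1 set and without sets 9, 11 and 13, where Eif2ak3, a kinase of the stress response, fell instead (-0.44 ± 0.09, adjusted p = 0.03).

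Further DEG with large changes in all 9 pairs fell outside these groups. Prl2c2, a proliferin of the prolactin family, had 0 to 22.9 FPM under AII+NA (median 0.337) and 0.219 to 130 FPM under ALL (median 3.83). It passed the count filter through the ALL libraries in which it was high. Its fold change and test are therefore not reported, although it is counted among the DEG. It has near-identical copies, and Prl2c3, which was below the count filter, was also higher under ALL in all 9 pairs, so that reads cannot be assigned to either with certainty. Sprr1a, a cornified envelope protein (1.12 ± 0.24), Gabre, a GABA receptor subunit (0.98 ± 0.19), Camk2a, a calcium-dependent kinase (0.96 ± 0.20), and the lncRNA Gm56730 (1.09 ± 0.14) were higher. Camk2a met the minimum of 3 FPM only through its mean under ALL, which was 4.635 FPM, against 2.36 FPM under AII+NA. Scara5, a ferritin receptor, dropped from a median of 12.3 to 2.99 FPM (-1.31 ± 0.23, adjusted p = 0.012). Gramd1b, which moves cholesterol from the plasma membrane (-1.01 ± 0.15), Lgr6, a receptor for R-spondins (-1.29 ± 0.29), the lncRNA Mir503hg (-1.13 ± 0.19), Olfml2a (-1.01 ± 0.19), Cfap96 (-0.92 ± 0.15) and Bace2, a protease (-0.77 ± 0.11), were lower. Leaving out single sets ended the calls of Sprr1a (adjusted p up to 0.12), Lgr6 (0.12), Camk2a (0.10), Gabre (0.07) and Olfml2a (0.054), and without sets 9, 11 and 13 those of Sprr1a, Lgr6, Camk2a, Gabre and Cfap96 were lost.

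The same metabolic stressors were also given without hormones, as HG+FFA against Control in 9 pairs from other libraries of largely the same animals. There, 79 of 15664 genes were DEG (0.504%), 40 higher and 39 lower. Leaving out single sets moved this count in both directions, to as few as 43 DEG. All 76 DEG of ALL over AII+NA were tested and had the same sign, 67 at an unadjusted p under 0.05 (16.2% of all genes), 50 at an FDR under 0.05 (1.58% of all genes) and 43 as DEG, which is 56.6% of the 76 and 54.4% of the 79. The median change of the 76 in the direction of their call was 0.90 with hormones and 0.78 without them. The 76 were chosen by the first of these values. Conversely, 78 of the 79 were tested with hormones and all had the same sign, with medians of 0.90 without and 0.79 with hormones. The share of all genes with the same sign in both comparisons was not determined, so these counts of shared sign have no background beside them. Angptl4 rose by 3.19 ± 0.33 without hormones and 3.44 ± 0.33 with them, and Cpt1a by 0.79 ± 0.08 and 0.70 ± 0.08. Mylip changed by -1.19 ± 0.11 and -1.22 ± 0.13, and Abca1 by -1.10 ± 0.16 and -1.29 ± 0.19.

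**Figure D4:**
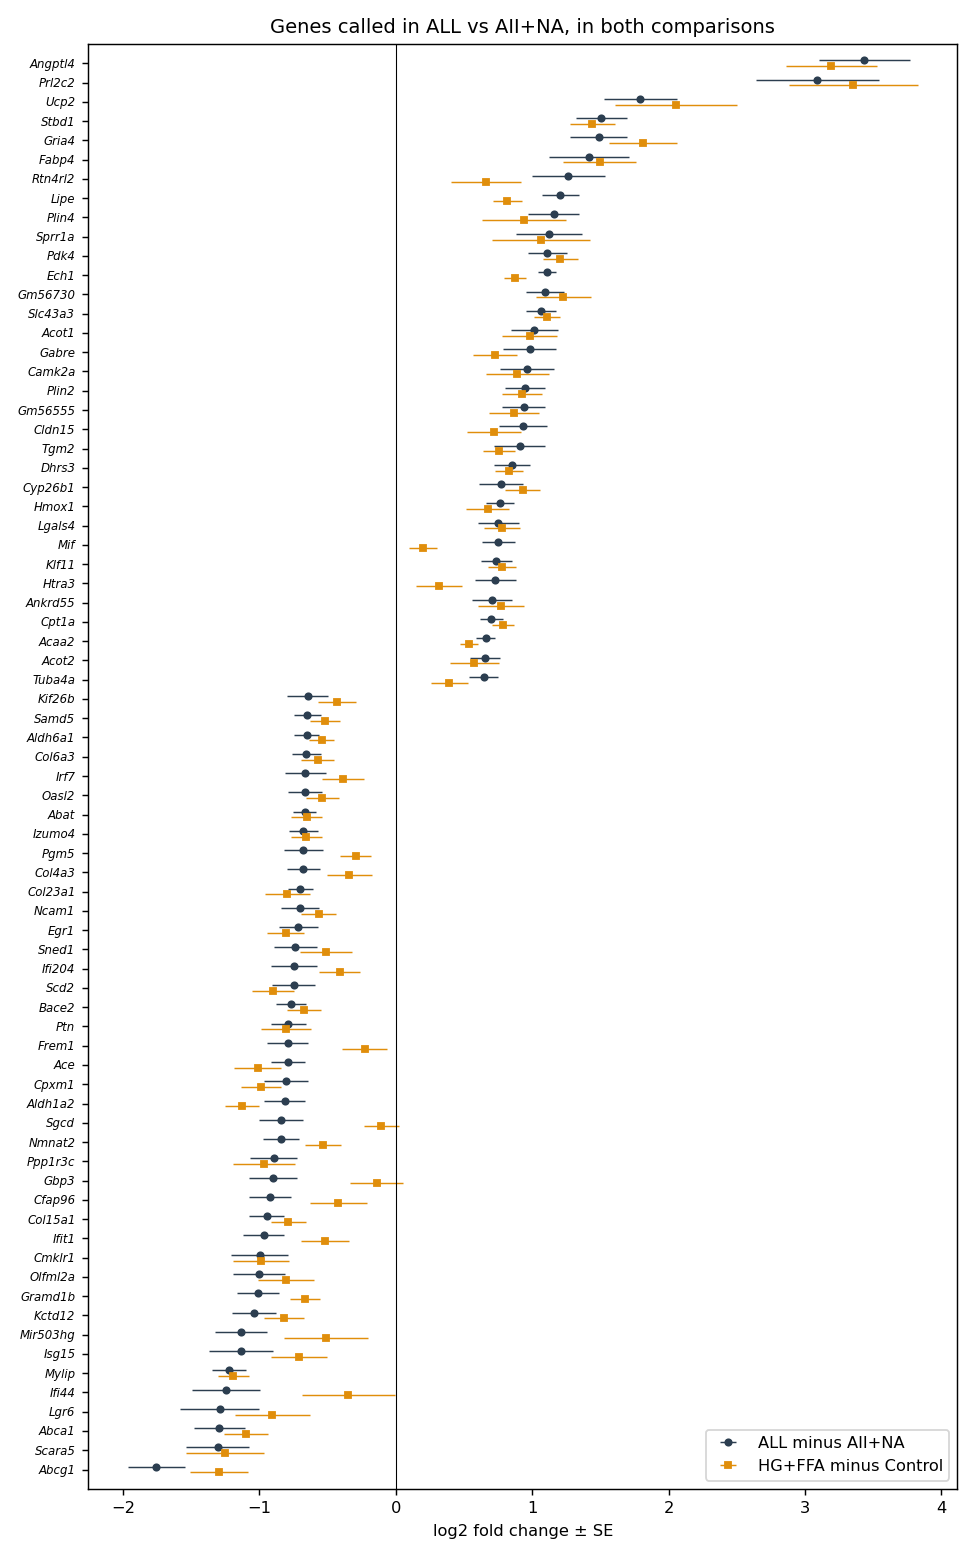
The log2 fold change ± SE of the DEG of ALL over AII+NA reported here, with circles for that comparison and squares for HG+FFA over Control. All have the same sign in both, and Sgcd, Gbp3, Mif and Frem1 lie closest to 0 without hormones.

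Whether the metabolic effect differs with hormones present was tested as the departure from additivity on the log2 scale, in the sets that hold all 4 treatments. No gene of 16970 passed in edgeR (smallest FDR 0.95, 757 genes or 4.46% at an unadjusted p under 0.05) or in DESeq2. Among the 76 DEG the median departure in the direction of the call was 0.05. An unadjusted p under 0.05 in edgeR was found for 5 of the 76, against 4.46% of all genes, and none of them passed adjustment. They are named here after their values were seen and are not shown to depart. Sgcd, a sarcoglycan, departed most (-0.81 ± 0.21, unadjusted p = 0.00046), with a log2FC of -0.84 with and -0.11 without hormones. Gbp3 (-0.63 ± 0.31), Mif, a cytokine (0.46 ± 0.17), Pgm5 (-0.40 ± 0.19) and Aldh1a2, which makes retinoic acid (0.40 ± 0.20), followed. For ALL over AII+NA itself, leaving out single sets ended the calls of Sgcd (adjusted p up to 0.057), Pgm5 (0.092) and Aldh1a2 (0.0503), and without sets 9, 11 and 13 those of Sgcd (0.091) and Pgm5 (0.12) were lost.

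The lists were called unevenly in the 2 comparisons. Without hormones, 0.785% of all genes were called higher and 0.798% lower. PPAR targets rose in 13 of 28 with hormones and 12 without, LXR genes fell in 4 and 6, and matrix genes in 8 and 6. Glucose handling genes rose in 8 with hormones and 1 without, which was Pdk4. The 7 glycolytic enzymes had a log2FC between 0.09 and 0.25 without hormones, each positive. Interferon-stimulated genes fell in 9 with hormones and in 2 without, where 1 rose and the list median was -0.21. None of these genes passed the test of additivity, so that a difference in counts of calls is not shown to be a difference in effect.

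In smooth muscle cells the same contrast had 4 pairs in WT VSMC and 3 pairs in KO VSMC, which lack Egfr. Cell type goes with the batch label and the organ of origin, and these cannot be told apart. EC sets 9, 10 and 16 share an animal with smooth muscle sets of this comparison, and the fit treats all sets as separate. No gene of 19137 differed between EC and WT VSMC in edgeR (smallest FDR 0.15, 679 or 3.55% at an unadjusted p under 0.05), while DESeq2 gave 18. No gene differed between EC and KO VSMC in edgeR (429 or 2.24% at an unadjusted p under 0.05) or DESeq2. Of the 76 DEG, 71 had the same sign in WT VSMC, 47 of them at an unadjusted p under 0.05, against 5.09% of all genes, and 8 at an FDR under 0.05, against 0.162%. In KO VSMC the counts were 74, 55 and 17, against 6.25% and 0.209%. For the counts of shared sign, 71 and 74, the share of all genes was not determined. Differences from EC had an unadjusted p under 0.05 in edgeR for 24 of the 76 in WT VSMC and 12 in KO VSMC. The shares of all genes were 3.55% and 2.24%. The median change in the direction of the call was 0.90 in EC, 0.60 in WT VSMC and 0.79 in KO VSMC, and the EC value is that by which the genes were chosen.

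**Figure D5:**
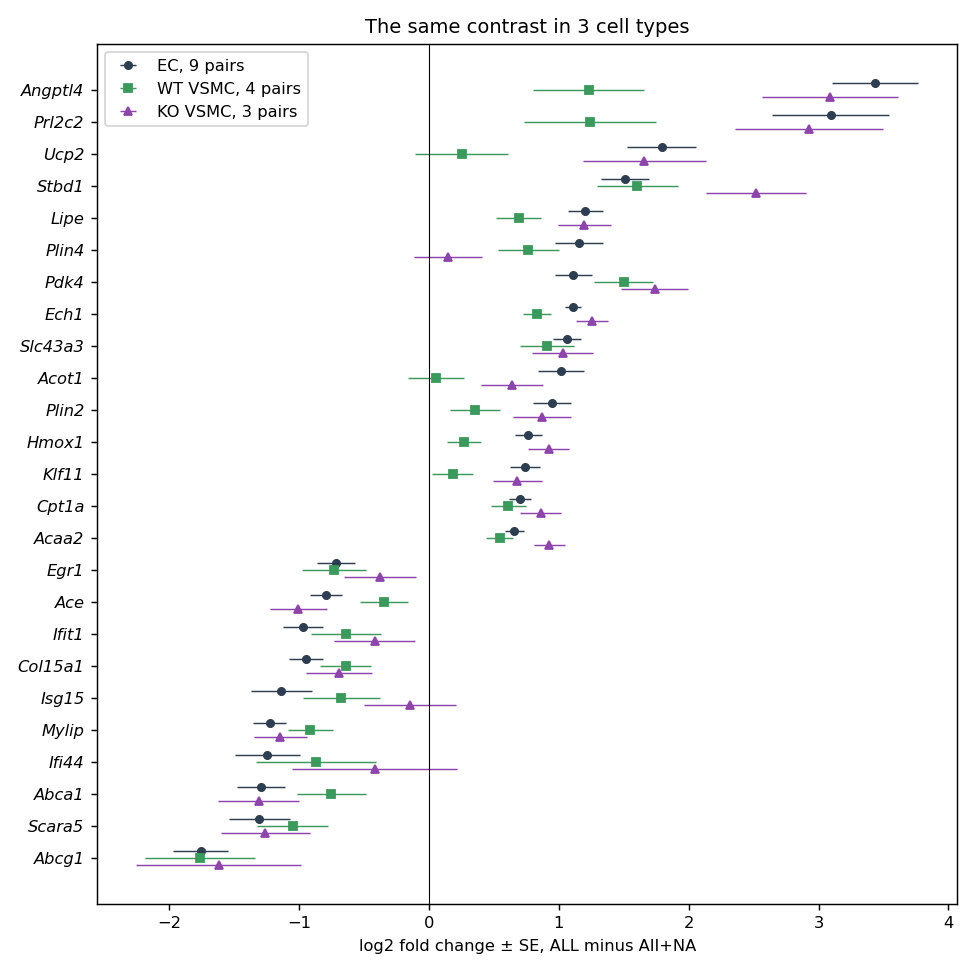
The log2 fold change ± SE of ALL over AII+NA for 25 DEG in EC, WT VSMC and KO VSMC. Abcg1, Mylip and Ech1 lie on the same side of 0 in all 3, and Angptl4 is at 3.44 in EC, 1.23 in WT VSMC and 3.09 in KO VSMC.

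Angptl4 had a log2FC of 3.44 in EC, 1.23 ± 0.43 in WT VSMC, where it did not pass (adjusted p = 0.53), and 3.09 ± 0.52 in KO VSMC (adjusted p = 0.012). The difference between EC and WT VSMC was 2.20 ± 0.53 (unadjusted p = 0.00041, adjusted p = 0.46). Without sets 9, 11 and 13, which leaves 6 sets of EC, the difference was 2.81 ± 0.37 (adjusted p = 0.011), and 16 genes passed in edgeR, among them Acot1 with 1.24 ± 0.21 (adjusted p = 0.028). Ucp2 had a log2FC of 1.79 in EC and 0.25 in WT VSMC (difference 1.54 ± 0.45, adjusted p = 0.85). Abcg1 had -1.76 in both, and Stbd1 had 1.51 and 1.61. Isg15 had -1.14 in EC, -0.67 in WT VSMC and -0.14 in KO VSMC, and Ifit1 -0.97, -0.64 and -0.42, with an adjusted p of 1 for each difference from EC.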

How the data were processed

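Poly(A) RNA-Seq of cultured EC was used. The authors aligned reads to mm39 with HISAT2 2.1.0, assigned them to exons with featureCounts, including multiply aligned reads (-M), and deposited raw counts per gene, without normalization. The strand setting and the use of fractions are not given in the sources used here. Gene names came from GENCODE for GRCm39, not the authors' Ensembl release, and 0.0241% of counts were on identifiers it lacks. Promoter windows came from RefSeq (GRCm38) and were placed on GRCm39 by an exact match.

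R 4.3.3 with edgeR 4.0.16 (filterByExpr, TMM, quasi-likelihood test) and DESeq2 1.42.0 was used, with the set as a block. Sets share an animal and passage, as the methods state. Deviations of libraries of the same set correlated by 0.75 on average (lowest 0.61), and those of different sets by -0.09 (highest 0.492). Across sets 17 and 18, which share an animal but are separate blocks, the correlation was 0.165. No libraries of a condition were duplicates (smallest chi-square per gene 79.1). A member of a list rose or fell where edgeR's FDR was under 0.05. P-values measure how the difference between treatments varies from set to set, and not the spread of levels between sets, which the block removes. Single FPM values had a pseudocount of 0.1 FPM added before log2 ratios.

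Members and lists were chosen with earlier results of these data known. Named genes are the DEG of largest change among those alike in 9 pairs, at most 15 per direction, up to 4 called members per direction and 2 abundant uncalled members of each list, the markers, and further called genes named after their values were seen. Alternatives were other tools, size factors, filters and thresholds, no block, all 38 EC libraries, the animal as the unit and each set left out. Leaving out sets 9, 11 and 13 was chosen after seeing the data. In simulated data for this comparison, with 15007 genes fitted, 99% of 100 genes at a |log2FC| of 1.5 and 97% of 100 at 0.8 were recovered, with 10 false calls. The changed genes were drawn from genes above a minimum level, with the same change in every pair. They were scored by edgeR's FDR alone, not by the DEG rule. Recovery of genes at low levels, or with changes that differ between pairs, was not tested. Some genes are not reported here.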

Additional observations from a re-analysis of the deposited data

Results flagged for a closer look

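Of 77 called genes named here, 3 had a pair far from the others by Dixon's criterion for 9 values, which chance alone gives for about 1 gene in 20. Gramd1b had a log2 ratio of ALL to AII+NA of -2.23 in set 14, where it went from 11 to 2.27 FPM, against -1.26 to -0.49 in the other sets. Ace had a log2 ratio of 0.18 in set 11, where it went from 18.4 to 20.8 FPM, against -1.41 to -0.62 in the other sets. Set 11 is one of the 3 sets with few endothelial marker reads, and Ace passed the test without these sets as well (log2FC -0.85 ± 0.09). Frem1, an extracellular matrix protein named after its values were seen, had a log2 ratio of -2.04 in set 12, where it went from 0.718 to 0.0984 FPM with a pseudocount of 0.1 FPM in the ratio, against -1.02 to 0 in the other sets. It was at 0 in both libraries of set 14 and ranged up to 635 FPM in set 18, and it lost its call without set 10, 16 or 18 (adjusted p up to 0.15).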

How the results depend on the processing

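For ALL over AII+NA, the 76 DEG became 139 with DESeq2 alone, 122 without the count filter, 27 at a |log2FC| of at least 1 and 199 with no such threshold. Between 76 and 108 DEG came from edgeR alone, other size factors, all 38 EC libraries, the animal as the unit, all gene types and no FPM minimum. The 210 genes at edgeR's FDR became 585 with DESeq2, 645 without the count filter and 552 with all 38 EC libraries. Leaving out 1 set at a time gave 46 (without set 10) to 95 DEG and 79 (without set 10) to 234 genes at edgeR's FDR, with 98 without set 12, 137 without set 14, 94 without set 16 and 138 without set 18. For HG+FFA over Control, the 79 DEG became 132 with DESeq2 alone and 43 to 94 with 1 set left out, with 43 without set 12 or 14, 44 without set 15 and 50 without set 18. The difference between EC and WT VSMC went from 0 to 18 genes with DESeq2 and to 16 without sets 9, 11 and 13, the departure from additivity and the difference from KO VSMC stayed at 0 genes in every alternative run, and the cause of these shifts was not tested.

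Without the pairing of libraries by set, that is with no replicate block, 1 gene passed for ALL over AII+NA, Ech1, as a DEG and by edgeR's FDR, and 0 for HG+FFA over Control. Of 77 named genes with a call, 38 kept it in all 9 fits with 1 set left out and 39 lost it in at least 1. DESeq2 and its size factors kept all 77, all 38 EC libraries 75, the animal as the unit 73 and the fit without sets 9, 11 and 13 kept 56. No named gene changed its direction in these fits, and the cause of the lost calls was not tested. Without the block 76 of these 77 calls were lost, and the counts for additivity and for the differences from VSMC stayed at 0. Whether depth limits genes near the count filter was not tested.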

Other observations

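Cyp26b1, a cytochrome P450 that degrades retinoic acid, was a DEG named after its values were seen. It was uneven between sets, with 1.53 to 202 FPM under AII+NA (median 38.6) and a median of 78.3 FPM under ALL, and was higher under ALL in 8 of 9 pairs (log2FC 0.77 ± 0.16). It lost its call in 7 of 9 fits without 1 set (adjusted p up to 0.088) and without sets 9, 11 and 13 (0.13). Without hormones its log2FC of HG+FFA over Control was 0.93 ± 0.13, higher in 9 of 9 pairs.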
